A study of Mus musculus with 4 samples.

Results

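Nppa and Nppb encode the cardiac natriuretic peptides, and the chromatin around them was described here in ventricles of newborn mice. The members are all peaks of 3 chromatin immunoprecipitation sequencing (ChIP-seq) lists that share 1 bp or more with a window of 120 kb on chromosome 4, from 147300001 to 147420000 in the mouse build mm9. This gave 14 of the 86315 peaks of the series: 0 of 774 TCF7L2 peaks, 3 of 10530 GATA4 peaks and 11 of 75011 H3K27ac peaks. The window was fixed by position and by no measured value. That it holds Nppa and Nppb was taken as given, since the gene table used here is of GRCm38.p6, another build, and no start site could be placed on the mm9 positions.

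All samples came from wild-type C57BL/6 mice at postnatal day 6, with no treatment named. Chromatin from ventricles of 10 hearts was pooled for every precipitation with an antibody to TCF7L2, GATA4 or H3K27ac, and the input sample was not analysed here. Whole ventricles contain cardiomyocytes, fibroblasts, endothelial and other cells, so a peak cannot be assigned to one of them. The labels name 2 biological replicates per antibody, but only 1 list stands for each antibody, so the values carry no replicate error and no difference was tested. The lists give positions in bp and no height, and the read depth is unknown.

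Nppa encodes atrial natriuretic peptide and Nppb encodes brain natriuretic peptide, hormones that cardiomyocytes release on stretch. Both act through the receptor Npr1, a guanylyl cyclase that makes cGMP, and promote sodium excretion and vasodilation. Both genes are expressed in the ventricles before birth, fall in the ventricular wall afterwards and return in hypertrophy and failure. GATA4 is a zinc-finger factor of cardiomyocytes that is known to bind the promoters of both genes at GATA sites. TCF7L2 is a DNA-binding partner of beta-catenin in Wnt signalling, and H3K27ac, acetylation of histone H3 at lysine 27, marks active promoters and enhancers. In the RefSeq gene table of GRCm38.p6, Nppb and Nppa are direct neighbours. The genes before them are 2510039O18Rik, Plod1, a collagen lysyl hydroxylase, and Mfn2, a mitochondrial fusion protein. The next gene after them is Clcn6, a chloride-proton exchanger.

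The promoters of both genes are in the RefSeq promoter table of GRCm38.p6, and their bases are shown for the factor motifs near the start sites the table uses. For Nppa the 250 bases before the start are given, at chr4:148000472-148000721 on the plus strand. For Nppb only the 30 bases around its GATA motifs are given, at chr4:147985799-147985828 on the plus strand. In the gene table Nppb begins before the start site that the promoter table uses. All Nppb bases and motifs given here lie after that earlier start, so they may be transcribed in another transcript of the gene, and "before the start" refers for Nppb to the promoter table's site alone. All of these are GRCm38.p6 positions and cannot be set against the mm9 positions of the peaks. Capitals mark GATAA, the core of the GATA motif, and CTTTGA, the core of the TCF/LEF motif, on either strand (TTATC and TCAAAG are their reverse complements).
Nppa: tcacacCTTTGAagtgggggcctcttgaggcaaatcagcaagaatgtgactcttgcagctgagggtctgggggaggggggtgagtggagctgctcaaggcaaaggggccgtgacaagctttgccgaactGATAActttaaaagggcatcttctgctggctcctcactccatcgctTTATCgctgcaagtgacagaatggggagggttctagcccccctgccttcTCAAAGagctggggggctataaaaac
Nppb: tgcagctGATAAatcagaGATAAccccacc

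Each promoter held 2 GATAA cores. In Nppa they spanned bases 121 to 117 before the start, on the plus strand, and bases 75 to 71, on the minus strand. In Nppb both were on the plus strand, at bases 94 to 90 and 83 to 79 before the start, and the second is part of the longer motif AGATAA. The longer motif was not in the 250 bases of Nppa. GATAA was added after these sequences were seen, and 22.6% of all 32851 promoters in the table hold it within 250 bases before the start. AGATAA was in 9.99% of them.

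The TCF/LEF core CTTTGA occurred 2 times in Nppa, at bases 244 to 239 before the start on the plus strand and at bases 26 to 21 on the minus strand. It was not in the 250 bases of Nppb, and 13.8% of all promoters held it. The Nkx2-5 motif TNAAGTG was found in Nppa, at bases 241 to 235 and overlapping the first CTTTGA, and 10.1% of all promoters held it. The TEAD motif CATTCC was found in Nppb on the minus strand, at bases 105 to 100 before the start, and 12.6% of promoters held it. A full match to the CArG box, the motif of the factor SRF, was in neither sequence and in 1.47% of promoters. Sequences that only resemble the CArG box, such as ctttaaaagg in Nppa, were not counted. A match is a run of letters and not evidence of binding.

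The same motifs were counted in the promoters of 9 other genes of the pathway, namely the ligand Nppc, the receptors Npr1, Npr2 and Npr3, the processing enzymes Corin, Furin and Pcsk6, the degrading enzyme Mme and the cGMP-dependent kinase Prkg1. These genes could not be placed on the mm9 peaks either. GATAA, and with it AGATAA, was present in 1 of the 9, Prkg1. CTTTGA was present in 2 of the 9, Nppc and Mme, TNAAGTG in 1, Furin, CATTCC in 1, Mme, and the CArG box in 0. These are counts of genes, and the 9 genes have 13 promoters in the table. Over all promoters, counted singly, the shares were 22.6% for GATAA, 9.99% for AGATAA and 13.8% for CTTTGA. They were 10.1% for TNAAGTG, 12.6% for CATTCC and 1.47% for the CArG box. Counts of genes and shares of promoters are unlike units, and with 9 genes no difference can be read from them.

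Acetylated chromatin covered 41.3 kb of the window holding Nppa and Nppb, or 34.5% of its bases. The 11 H3K27ac peaks ranged in width from 125 bp to 11.3 kb, with a median of 2256 bp. The other 4529 H3K27ac peaks of chromosome 4 had a median of 1322 bp and quartiles of 507 and 3598 bp. Of the window's peaks 5 lay between these quartiles, 3 above and 3 below. The 3 above were wider than 91.3% to 93.7% of the others, and the narrowest, of 125 bp, was wider than only 0.0221% of them. The 3 widest carried 73.3% of the acetylated bases of the window.

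**Figure D1:**
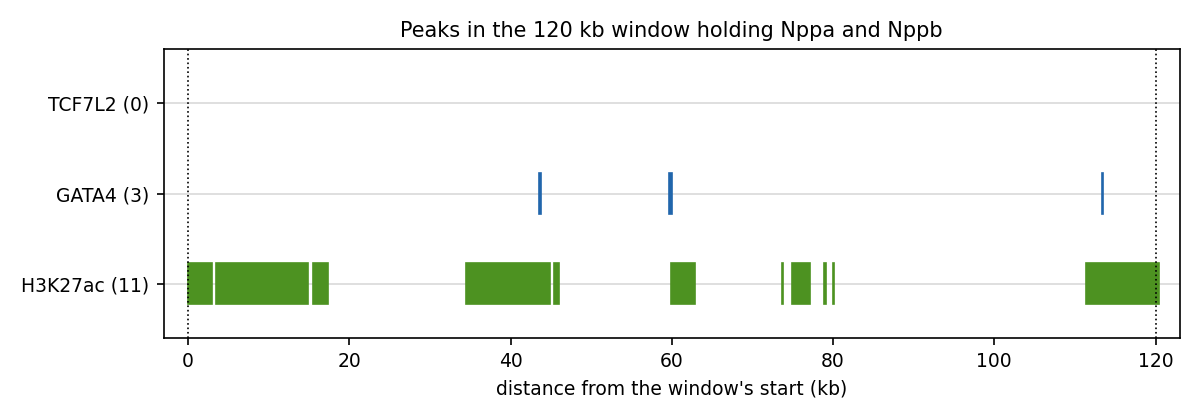
Peaks of the 3 lists drawn to scale along the window, with the distance from its start in kb on the horizontal axis and 1 row per antibody; each block is 1 peak and the dotted lines are the window's ends. The 11 H3K27ac peaks (green) form 4 groups, the 3 GATA4 peaks (blue) lie on the last 3 of these, and the TCF7L2 row is empty.

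The H3K27ac peaks formed 4 stretches after neighbours up to 12.5 kb apart were joined. The first stretch reached 17.3 kb into the window and consisted there of peaks of 2.92 kb (147300001 to 147302918), 11.3 kb (147303520 to 147314826) and 1.88 kb (147315443 to 147317319), separated by 601 and 616 bp. It began 59.9 kb before the window, was 77.2 kb long in all, and held 6 GATA4 peaks, 0 of which were in the window. The first of these H3K27ac peaks starts at the first base of the window. It is 1 of 2 peaks of the whole list whose border lies there on a multiple of 100000 bp, and its neighbour before the window ended 1.88 kb earlier.

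After 17.2 kb with no H3K27ac came the second stretch, 11.5 kb long and wholly inside the window. It consisted of a peak of 10.4 kb (147334495 to 147344911) and one of 563 bp (147345413 to 147345975). Of this stretch 95.6% was acetylated, and it held 1 GATA4 peak.

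The third stretch began 14.0 kb further on, spanned 20.2 kb (147359947 to 147380173) and lay between 59.9 and 80.2 kb from the window's start. It was made of 5 separate peaks: 2947 bp (147359947 to 147362893), 128 bp (147373694 to 147373821), 2256 bp (147374933 to 147377188), 237 bp (147378858 to 147379094) and 125 bp (147380049 to 147380173). These covered only 28.1% of it, against 83.3% to 95.6% of the other 3 stretches. On the rest of chromosome 4, 264 stretches had 5 or more H3K27ac peaks. Their covered share had a median of 54.5% (quartiles 40.5% and 67.1%), and 16 of the 264 were less covered than this one. The third stretch was therefore thinly covered for a stretch joined in this way. Its low cover depends on the joining distance, which was not varied, because a gap of 10800 bp was kept inside it. The central 60 kb of the window was 27.8% acetylated. Most of the acetylated bases of the third stretch were in the peaks of 2947 and 2256 bp. These were wider than 69.6% and 62.9% of the other H3K27ac peaks of the chromosome.

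The longest gap, 31.3 kb without an H3K27ac peak, followed the third stretch. The fourth stretch then began 111.4 kb from the window's start with a peak of 9.05 kb (147411435 to 147420482), of which 8566 bp lay in the window, and it ran on to 163.3 kb. In bins of 10 kb, 5 of the 12 bins of the window were more than 50% acetylated and 3 were at 0. The highest bin, at 94.0%, was the first.

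**Figure D2:**
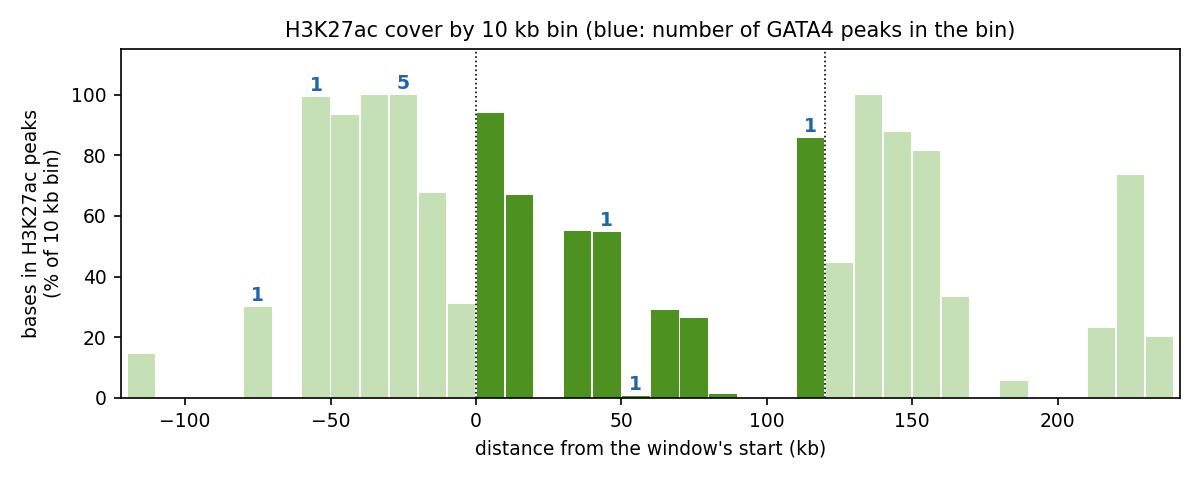
Share of bases in H3K27ac peaks (vertical axis, %) in each bin of 10 kb, by distance from the window's start (horizontal axis, kb); dark bars are the window holding Nppa and Nppb, light bars the windows before and after it, and blue digits count the GATA4 peaks with their midpoint in the bin. Acetylation is highest at the sides of the window and low between 50 and 110 kb, and the bin with 5 GATA4 peaks lies before the window.

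GATA4 was called at 3 places in the window, and each overlapped an H3K27ac peak. Of the 696 GATA4 peaks on the rest of chromosome 4, 557 did so, 80.0%. With 3 peaks, the exact binomial interval of the window's share of 100% runs from 29.2% to 100% and so includes that value. The interval covers counting error only.

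The first GATA4 peak (147343501 to 147343756) was 256 bp wide, wider than 74.6% of the other GATA4 peaks of chromosome 4. It lay wholly inside the H3K27ac peak of 10.4 kb, near its far end: 9006 bp separated its start from the start of the H3K27ac peak, and 1155 bp its end from the end of it.

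The second GATA4 peak (147359713 to 147360009) was the widest of the 3, with 297 bp, and wider than 83.3% of the others on the chromosome. It sat on a border of acetylation. Only 63 bp, 21.2% of the peak, overlapped the H3K27ac peak of 2.95 kb that opens the third stretch, and 234 bp lay before it. Of the 557 acetylated GATA4 peaks on the rest of chromosome 4, 9 were covered to less than 50%, or 1.62%, and 541 were covered in full, or 97.1%. So small an overlap was thus seldom seen among the acetylated GATA4 peaks of chromosome 4. GATA4 peaks that lie beside a border without overlapping H3K27ac are not in this count.

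The third GATA4 peak (147413311 to 147413445) was 135 bp wide, and 23.7% of the others were narrower. It lay wholly inside the H3K27ac peak of 9.05 kb, 1876 bp from its start and 7037 bp from its end. The median of the 3 widths was 256 bp, against 186 bp (quartiles 137 and 259 bp) for the other GATA4 peaks of the chromosome. The first peak lay between these quartiles, the second above them and the third below.

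**Figure D3:**
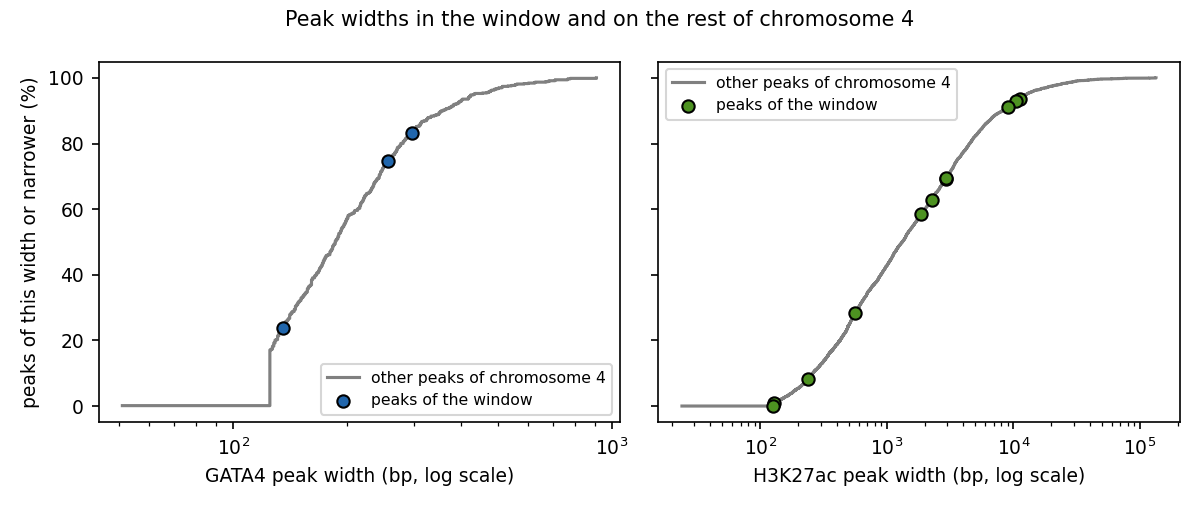
Peak width (horizontal axis, bp, log scale) against a share of the other chromosome 4 peaks (vertical axis, %), for GATA4 on the left and H3K27ac on the right. Grey lines give the share of the other peaks that were of that width or narrower. Points are the peaks of the window, placed at the share of the other peaks that were narrower. The 3 GATA4 points fall between 135 and 297 bp, and the 11 H3K27ac points spread from 125 bp to 11.3 kb with 3 close together near the top.

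The first and second GATA4 peaks were 16.0 kb apart, and the last pair 53.3 kb. Neighbouring GATA4 peaks of chromosome 4 had a median gap of 72.1 kb. Gaps between peaks of a window of 120 kb are limited by its width, so values below this median do not show close spacing. Outside the window, the nearest GATA4 peaks lay 20.9 kb before its start and 402.4 kb after its end. Seen from acetylation, 3 of the 11 H3K27ac peaks of the window held GATA4, 27.3% (exact binomial interval 6.02% to 61.0%), against 9.52% of the other 4529. The interval includes that value. The window's H3K27ac peaks were also wider, with a median of 2256 bp against 1322 bp, and shares at like width were not computed. The H3K27ac peaks with GATA4 were 10.4, 2.95 and 9.05 kb wide, and the widest of the window, of 11.3 kb, held 0. Per 100 kb of acetylated bases, the window had 7.26 acetylated GATA4 peaks and the rest of chromosome 4 had 3.55. The window's value rests on 3 peaks, including the border peak with only 21.2% of its bases in H3K27ac, and carries no interval.

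TCF7L2 had 0 peaks in the window. Chromosome 4 holds 52 TCF7L2 peaks in all, and 3.86% of its other windows of 120 kb held 1 or more, so a count of 0 is the usual one. The nearest TCF7L2 peak before the window (146811189 to 146811319, 131 bp) was 488.7 kb away and outside H3K27ac. The nearest after it (148697822 to 148698044, 223 bp) was 1277.8 kb away and inside H3K27ac. For the other 1220 windows without TCF7L2 the nearest peak was a median of 1358.0 kb away. No height is given for any position, so signal under the calling threshold could not be examined.

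Chromosome 4 was divided into 1270 windows of 120 kb in step with this one, a peak that crosses a border being counted on both sides, and the window was set among the other 1269. By GATA4 peaks it was in the upper tail: 3 or more were found in 71 of the others, 5.59%, of which 30 had more and 41 had the same number. The median was 0, and 863 windows had none. By H3K27ac peaks it was less far up, with 11 or more in 164 of the others, 12.9%, around a median of 1. By acetylated share 128 of the others were higher, 10.1%, and the median was 0.934%. Many windows held no acetylation at all, 563 or 44.4%, which lowers these medians.

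**Figure D4:**
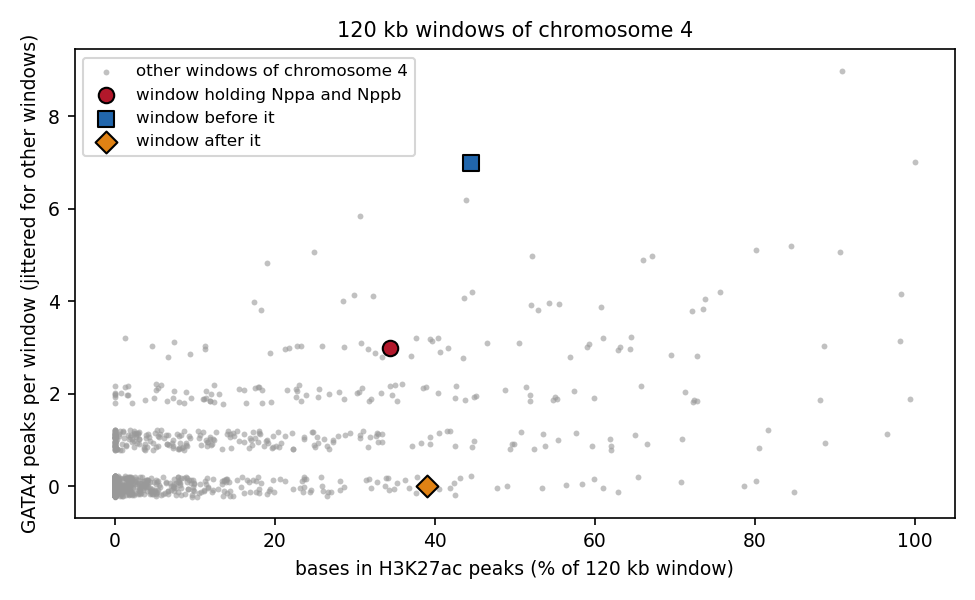
Windows of 120 kb on chromosome 4 by the share of their bases in H3K27ac peaks (horizontal axis, %) and their number of GATA4 peaks (vertical axis; grey points are jittered up and down so that they can be told apart). The window holding Nppa and Nppb (red circle) has 3 GATA4 peaks at 34.5%, the window before it (blue square) 7 at 44.6% and the window after it (orange diamond) 0 at 39.1%.

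Set against windows of like acetylation, the GATA4 count stood out less. There were 55 other windows with an acetylated share within 5 percentage points. Their GATA4 counts had a median of 1 and ran from 0 to 6, and 11 of them, 20.0%, had 3 or more. They held between 2 and 20 H3K27ac peaks with a median of 13, so that 11 peaks was near the middle. TCF7L2 was present in 8 of the 55 and absent from 47. Among the 41 other windows with exactly 3 GATA4 peaks, the acetylated share had a median of 37.7% (quartiles 22.8% and 59.0%), 4 held TCF7L2, and in 32 all GATA4 peaks overlapped H3K27ac, as they did in the window of Nppa and Nppb.

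The 3 windows of chromosome 4 with the most GATA4 peaks were more acetylated. One from 132540001 to 132660000 had 9 GATA4 peaks at 90.9%, and one from 45420001 to 45540000 had 7 at 100% with 1 TCF7L2 peak. The third was the direct neighbour before the Nppa and Nppb window, with 7 GATA4 peaks at 44.6%. The windows with the highest acetylated shares were that from 45420001 to 45540000, one from 97500001 to 97620000 at 99.5% with 2 GATA4 peaks, and one from 154500001 to 154620000 at 98.2% with 4 GATA4 peaks and 1 TCF7L2 peak.

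The window thus lay next to a denser GATA4 region. In the neighbour before it, 5 of the 7 GATA4 peaks lay within 8.44 kb (147270613 to 147279053), inside a single H3K27ac peak of 31.5 kb (147255244 to 147286746). The last of these (147278814 to 147279053, 240 bp) was 20.9 kb from the window and was the nearest GATA4 peak outside it. All 7 overlapped H3K27ac, which gave 13.1 acetylated GATA4 peaks per 100 kb of acetylated bases. The neighbour after the window had 13 H3K27ac peaks covering 39.1% and 0 GATA4 peaks, and the nearest GATA4 peak on that side (147822403 to 147822714, 312 bp) was 402.4 kb away. This neighbour is 1 of the 55 windows of like acetylation, and of the other 54, 14 had 0 GATA4 peaks. Among these 3 adjoining windows GATA4 was thus called 7, 3 and 0 times from first to last, while the acetylated share was 44.6%, 34.5% and 39.1%.

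Beyond the adjoining windows the lists held no H3K27ac peaks for some distance. With H3K27ac peaks followed outward until a gap of 120 kb or more, the acetylated region around Nppa and Nppb ran from 147182803 to 147535667, 352.9 kb, with the window close to its centre. It held 30 H3K27ac peaks, 10 GATA4 peaks and 0 TCF7L2 peaks, and 40.2% of it was acetylated. Before it came 364.0 kb without an H3K27ac peak, and after it 280.1 kb. A gap of at least 120 kb on each side follows from how the region was defined. Windows without an H3K27ac peak made up 44.4% of the other windows of chromosome 4. In the lists the 2 windows on each side beyond the adjoining ones had 0 peaks of any kind.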

How the data were processed

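The authors deposited 1 peak list per antibody with a chromosome, a start and an end and no other column, so the values are positions in bp. The build, mm9, and the tools MACS2 2.1.1.20160309.0, deepTools, Bowtie2 2.2.6.2 and FastQC 0.10.0 are named in the submitters' processing notes. Not given in the sources used here are the peak threshold, filters and how 2 biological replicates became 1 list. Starts, counted from 0 in the lists, were written 1-based.

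A peak belonged to the window when it shared 1 bp or more with it. All peaks of the window, its neighbours, the nearest peaks outside and the 3 highest windows by GATA4 count and by acetylated share were named by rule. The members and lists were chosen with earlier results of these data known. No test was run, because there is 1 list per antibody; window ranks are descriptions. Shares of peaks carry exact Clopper-Pearson 95% intervals. Window counts, cover and ranks were tested on simulated data and recovered in 20 of 20 runs of 200 windows. No simulated peak crossed a window border, so the handling of such peaks was not checked. Stretches, bins, density per acetylated kb, windows of like acetylation and the acetylated region were added after the data were seen. Software was scipy 1.17.1, pandas 2.3.3, numpy 2.4.6 and matplotlib 3.10.9 under Python 3.11.15.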

Additional observations from a re-analysis of the deposited data

How the results depend on the processing

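Of 24 alternatives, 17 left a value within 1.5 times the reported one or, for the acetylated share of GATA4 peaks, within its interval, and 7 did not. That interval runs from 29.2% to 100%, so a share of 66.7% counted as within it. With the same centre and 240 kb the window held 9 GATA4 peaks and 22 H3K27ac peaks at 52.1% acetylation. With 60 kb it held 2 GATA4 peaks and 7 H3K27ac peaks. The fall in GATA4 peaks from 3 to 2 lay at the limit of 1.5 times and was counted as within it. Joining H3K27ac peaks across gaps of up to 1 kb left 7. Among the 706 other windows with H3K27ac the ranks stayed at 31 by GATA4 count and 129 by acetylated share, but the share of windows at or above rose to 10.1% and 18.1% because fewer windows were compared. The rank by acetylated share could not change here, since every window with a higher share has H3K27ac. With 50% of the GATA4 peak required in H3K27ac, 2 of the 3 remained (66.7%), the border peak being lost. The TCF7L2 count was 0 in all 3 alternatives run on it. No paired analysis was possible because each antibody has 1 list and no test was made. Depth, peak height and the input were not examined.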
